A study of Mus musculus with 7 samples.

Results

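A set of 10 genes that mark Kupffer cells and other macrophages was followed in cultured mouse liver slices: Cd68, Ctss, Lyz2, Csf1r, Adgre1, Clec4f, Cd5l, Marco, C1qa and C1qb. They were chosen by symbol, as known markers, but with earlier results of these data known. Each of the 10 matched 1 of the 55487 Ensembl genes in the count table. The slices were precision-cut liver slices (PCLS), thin discs of living tissue that keep the liver's cell types together, and came from healthy male Balb/c mice. On day 3 of culture, 3 libraries came from slices kept in regular WME medium (CTR) and 4 from slices kept in WME medium with 2.5 mM valproic acid (VPA), a class I histone deacetylase inhibitor. The study's methods count different livers as biological repeats in its graphs, but the labels do not tie libraries to animals, and the slice culture numbers in the labels, partly shared between the groups, are not explained there. The p-values therefore measure the spread between these libraries. RNA of whole slices was made into 3′ end libraries and read counts per gene were compared, to ask whether VPA in the medium went with another level of these genes.

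Kupffer cells are the resident macrophages of the liver. They sit in the sinusoids and clear particles, bacteria and dying cells from the blood with scavenger receptors, lectins and complement, and digest them in lysosomes. Their survival depends on signalling through the CSF1 receptor, and after injury monocytes can enter the liver and take on a macrophage state. In RNA of a whole slice, fewer cells of a type and less RNA per cell cannot be told apart.

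The libraries held 1400887 to 4773750 counts on genes. Values are given as CPM, a gene's count scaled to the size of its library after TMM normalization. In 3′ end libraries a transcript gives reads at its end only, so CPM does not grow with gene length and levels of different genes can be set side by side, with the reservation that priming at the end can differ between genes. The limit that a count of 0 allows, 3 counts, stood at 0.591 CPM in the deepest library and 2.41 CPM in the shallowest, counting error alone being covered. CTR libraries had 17744 to 19756 genes with a count and VPA libraries 14359 to 16761, without overlap (p = 0.0286 by a two-sided exact permutation test, the smallest p that 3 against 4 libraries can give), while total counts overlapped (exact permutation p = 0.286). That overlap came from VPA replicate 2 alone (3102450 counts). VPA replicates 1, 3 and 4 had 1400887 to 1515954 counts, below the lowest CTR library (1743675). The part of depth in the number of genes with a count was not tested.

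Of the 10 genes, 8 had enough counts to be tested and none passed an adjusted p of 0.05 in edgeR's quasi-likelihood test, where 1 of all 10876 genes tested, or 0.00919%, did. None had an unadjusted p under 0.05 either, against 8.28% of all genes tested. With the slice culture number as a replicate block, should it mark a shared liver, no gene passed the adjusted threshold in edgeR and 1 member, Cd68, had an unadjusted p under 0.05 (log2 fold change 0.54, adjusted p = 0.592). In that fit VPA replicate 1, alone with its slice culture number, added nothing to the fold change. No gene of the set was lower in all VPA libraries than in all CTR libraries or higher in all, against 7.41% of all genes in the first direction and 4.44% in the second. The log2 fold change, VPA minus CTR, was below 0 for 3 and above 0 for 5 of the 8, with a median of 0.16, and for all genes tested it was below 0 for 5894 and above 0 for 4982, with a median of -0.06. With 3 and 4 libraries the fits left wide intervals, which are given below, so these values do not show that the groups were alike.

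**Figure D1:**
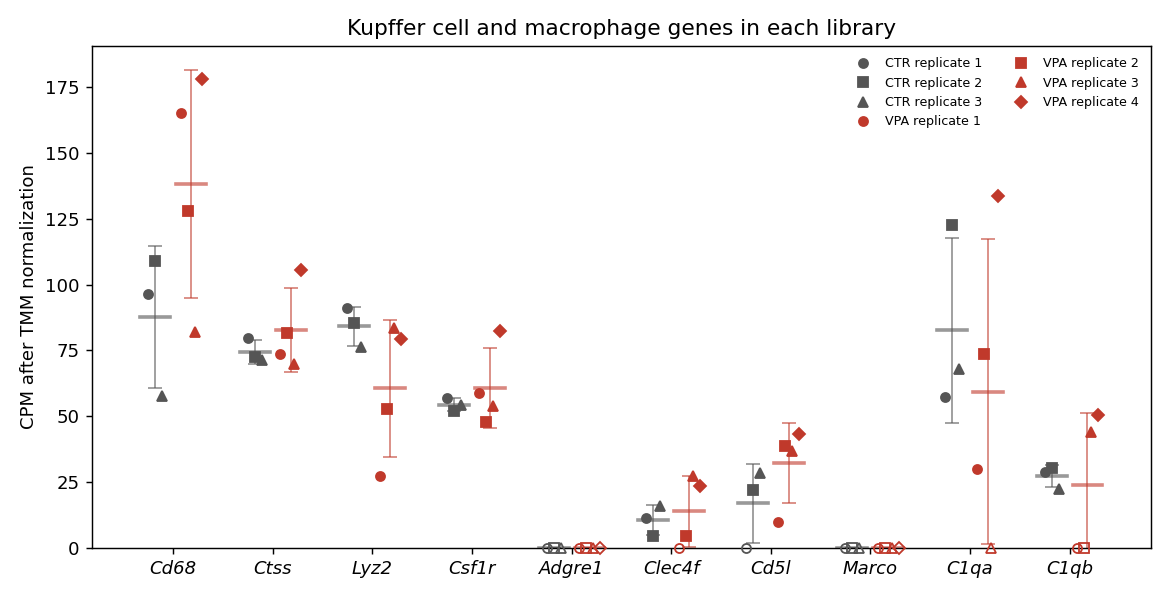
CPM after TMM normalization (y axis) of the 10 genes (x axis) in each of the 3 CTR (grey) and 4 VPA (red) libraries, with the group mean as a bar and the SD as whiskers, where open symbols are counts of 0. Adgre1 and Marco lie at 0 in all 7 libraries, Cd68, Ctss, Lyz2 and Csf1r are above 0 in all, and the groups overlap for every gene.

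Of the genes of the lysosome and of phagocytic killing, Cd68 had the most counts of the set over all libraries, 1911. Cd68 (macrosialin, a glycoprotein of late endosomes and lysosomes, ENSMUSG00000018774, GRCm38 chr11:69664213-69666153, minus strand) was at 96.5, 109 and 57.6 CPM in CTR replicates 1 to 3. In VPA replicates 1 to 4 it was at 165, 128, 81.9 and 178 CPM. VPA replicates 1, 2 and 4 exceeded the highest CTR value, and VPA replicate 3 fell inside the CTR range. The mean was 87.8 ± 26.9 CPM in CTR (SD, n = 3) and 138 ± 43.2 in VPA (SD, n = 4), a log2 fold change of 0.65 ± 0.32 (SE, 95% interval -0.10 to 1.40; edgeR adjusted p = 0.672). With 1 library left out it ranged from 0.40 without CTR replicate 3 to 0.83 without CTR replicate 2.

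Ctss (cathepsin S, a lysosomal protease that trims the invariant chain of MHC class II, ENSMUSG00000038642, chr3:95526786-95556403, plus strand) was at 79.6, 72.3 and 71.3 CPM in CTR and at 73.8, 81.5, 69.8 and 106 CPM in VPA. Apart from VPA replicate 4, the libraries of both groups lay within a narrow band. Its log2 fold change was 0.15 ± 0.19 (SE, 95% interval -0.29 to 0.59; edgeR adjusted p = 0.937). It ranged from 0.0088 without VPA replicate 4 to 0.22 without VPA replicate 3, and was 0.0129 with the replicate block by replicate number. A processed pseudogene, Hmgb1-ps5, lies inside the gene on the same strand and had 12 counts in all libraries together, against 1304 for Ctss.

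Lyz2 (lysozyme of macrophages and other myeloid cells, ENSMUSG00000069516, chr10:117277331-117282321, minus strand) was at 91.0, 85.3 and 76.2 CPM in CTR. VPA libraries had 27.4, 52.6, 83.5 and 79.3 CPM, so that VPA replicates 1 and 2 lay below all CTR libraries and VPA replicates 3 and 4 within their range. The log2 fold change was -0.48 ± 0.36 (SE, 95% interval -1.31 to 0.36; edgeR adjusted p = 0.851). It ranged from -0.67 without VPA replicate 3 to -0.24 without VPA replicate 1, and was -0.26 with the replicate block by slice culture number. The overlap rests on the scaling: with CPM by total count, without TMM, the highest VPA library (74.2) lay below the lowest CTR library (79.7). Its neighbour and close paralog Lyz1 had 2 counts in all libraries together.

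Cd68 and Lyz2 therefore stood in different proportions from library to library. The count ratio of Cd68 to Lyz2 was 1.06, 1.28 and 0.755 in CTR and 6.02, 2.43, 0.981 and 2.25 in VPA. The ratio was above the CTR range in VPA replicates 1, 2 and 4 and inside it in VPA replicate 3. These ratios were looked at after the values were seen and were not tested.

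Csf1r (the receptor for CSF1 and IL-34, on which macrophage survival depends, ENSMUSG00000024621, chr18:61100598-61132149, plus strand) was at 56.7, 51.8 and 54.3 CPM in CTR, the smallest SD there (2.45 CPM) among the 8 members with counts. In VPA it was at 58.8, 48.0, 53.8 and 82.3 CPM, with VPA replicate 4 above all others. The log2 fold change was 0.16 ± 0.23 (SE, 95% interval -0.37 to 0.68; edgeR adjusted p = 0.945), and without VPA replicate 4 it was -0.03. The last 873 bases of Csf1r overlap Hmgxb3 on the other strand, a gene with 579 counts, and since it is not given whether the counting used strand, the value is uncertain.

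Adgre1 (F4/80, a surface receptor used to stain mouse macrophages, ENSMUSG00000004730, chr17:57358691-57483527) had no count in any of the 7 libraries. The same held for Marco (a scavenger receptor for bacteria and particles, ENSMUSG00000026390, chr1:120474538-120505024). Both are usual Kupffer cell genes, and the limit of 3 counts per library would cover counting error only, not a gene lost in a processing step. Why they are at 0 while Cd68 and Csf1r were counted in the same libraries was not tested.

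Clec4f and Cd5l are the remaining members that mark Kupffer cells. Clec4f (a C-type lectin made by Kupffer cells in the mouse, ENSMUSG00000014542, chr6:83644542-83656187, minus strand) had 29, 23 and 29 counts in CTR and 0, 14, 34 and 31 in VPA. In CPM this was 11.4, 4.53 and 15.9 against 0, 4.30, 27.3 and 23.4, so the VPA libraries lay on both sides of the CTR range. The log2 fold change was 0.37 ± 1.25 (SE, 95% interval -2.54 to 3.28; edgeR adjusted p = 0.973), and its sign turned when CTR replicate 2, VPA replicate 3 or VPA replicate 4 was left out (-0.01, -0.21 and -0.03).

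Cd5l (a secreted scavenger protein of tissue macrophages that binds lipids and IgM, ENSMUSG00000015854, chr3:87357881-87371073, plus strand) was at 0, 22.1 and 28.5 CPM in CTR. VPA libraries had 9.79, 38.7, 36.9 and 43.0 CPM. VPA replicates 2, 3 and 4 lay above all CTR libraries and VPA replicate 1 lay between CTR replicates. The log2 fold change of 0.93 ± 1.15 (SE, 95% interval -1.74 to 3.60; edgeR adjusted p = 0.937) moved with single libraries, to 0.34 without CTR replicate 1, the library at 0, and to 1.49 without CTR replicate 3.

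C1qa and C1qb encode 2 of the chains of C1q, the recognition protein of the classical complement pathway, which tissue macrophages make. The third chain gene, C1qc, is no member of the set but stands between them on the minus strand of chr4, with C1qb at 136880129-136886187, C1qc at 136889804-136893065 and C1qa at 136895917-136898803. C1qa (ENSMUSG00000036887) was at 57.1, 123 and 68.0 CPM in CTR and at 30.03, 73.8, 0 and 134 CPM in VPA. C1qb (ENSMUSG00000036905) was at 28.8, 30.4 and 22.5 CPM in CTR and at 0, 0, 44.2 and 50.6 CPM in VPA. The zeros of the genes fell in different libraries: C1qb had no count in VPA replicates 1 and 2, where C1qa had 46 and 240 counts, and C1qa had none in VPA replicate 3, where C1qb had 55.

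The log2 fold change was -0.48 ± 1.04 for C1qa (SE, 95% interval -2.91 to 1.96; edgeR adjusted p = 0.962), and it ranged from -1.22 without VPA replicate 4 to -0.07 without VPA replicate 3. For C1qb it was -0.22 ± 1.52 (SE, 95% interval -3.77 to 3.33; edgeR adjusted p = 0.987), and its sign turned without VPA replicate 1 (0.19) or VPA replicate 2 (0.21). C1qc (ENSMUSG00000036896) was at 9.06, 30.4 and 11.0 CPM in CTR and at 54.8, 25.8, 46.6 and 23.4 CPM in VPA, a log2 fold change of 1.14 ± 0.54 (SE, edgeR adjusted p = 0.650). Its fold change ranged from 0.83 without CTR replicate 1 to 1.89 without CTR replicate 2. C1qc was counted in all 7 libraries and was highest in VPA replicates 1 and 3. Summed over the 3 chains, which was done after the values were seen, CPM was 95.0, 184 and 101 in CTR and 84.9, 99.6, 90.7 and 208 in VPA.

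**Figure D2:**
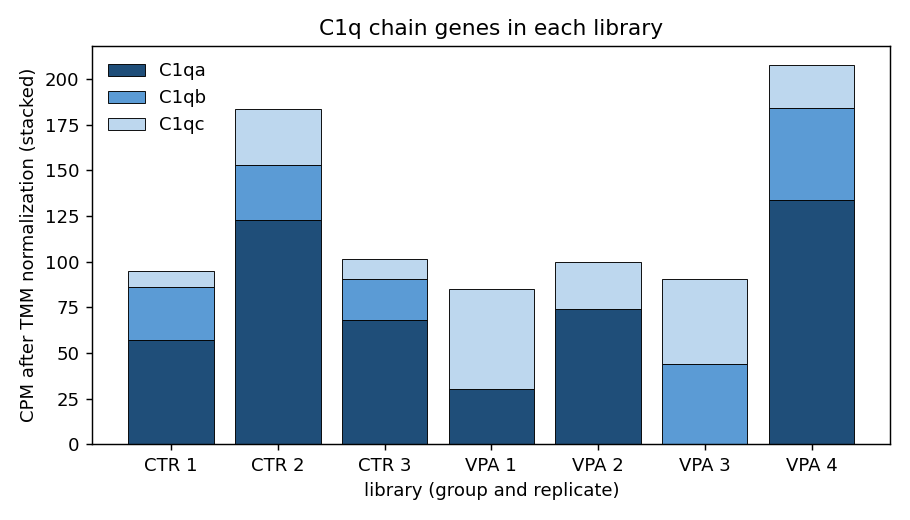
Stacked CPM after TMM normalization (y axis) of C1qa, C1qb and C1qc in each library (x axis, CTR replicates 1 to 3 and VPA replicates 1 to 4). C1qb is missing from the bars of VPA 1 and VPA 2 and C1qa from that of VPA 3, while C1qc is in every bar, and CTR 2 and VPA 4 are the highest bars, at 184 and 208 CPM.

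A count of 0 in a single library stood out because the other libraries held many counts. From the median CPM of the other 6 libraries, 83.0 counts would have stood for Cd5l in CTR replicate 1, 20.9 for Clec4f in VPA replicate 1, 88.3 for C1qa in VPA replicate 3, and 45.3 and 96.1 for C1qb in VPA replicates 1 and 2. In this way 4 of the 8 tested genes had a 0 in at least 1 library, against 25% of all genes tested. Such zeros were also found in other genes. Among genes for which 30 counts or more stood to be found by the same rule, 0.967 to 1.65% were at 0 in CTR libraries and 2.46 to 6.74% in VPA libraries. The groups did not overlap in CTR against VPA shares (means 1.31 ± 0.343% and 4.18 ± 1.87%, SD, n = 3 and 4, two-sided exact permutation p = 0.0571), a check set up after the zeros were seen. Its part in the values of Clec4f, Cd5l, C1qa and C1qb was not tested.

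**Figure D3:**
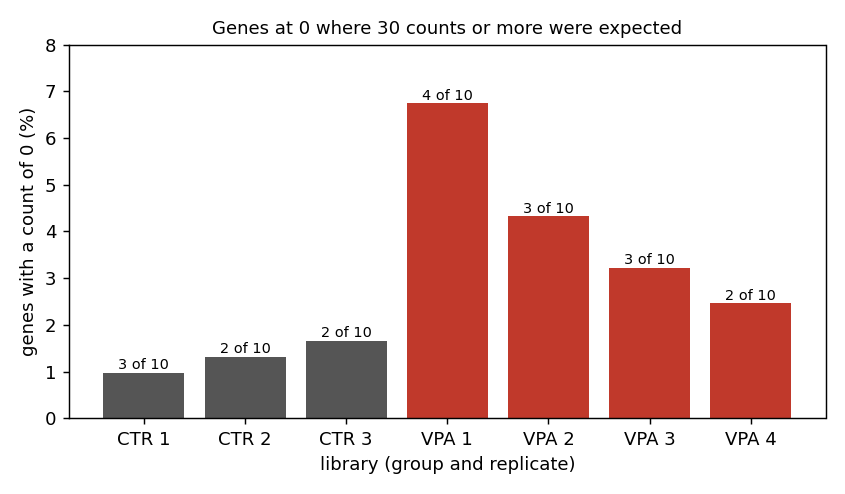
Share of genes at a count of 0 (y axis, percent) among genes for which 30 counts or more stood to be found from the other libraries, in each library (x axis, CTR grey, VPA red), with the number of the 10 macrophage genes at 0 written above each bar. CTR bars lie between 0.967 and 1.65% and VPA bars between 2.46 and 6.74%, and VPA 1 has both the highest bar and the most macrophage genes at 0, 4 of 10.

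Taking Cd68, Ctss, Lyz2 and Csf1r alone, the members with a count in every library, the summed level was 324, 319 and 259 CPM in CTR and 325, 310, 289 and 446 CPM in VPA. VPA replicate 4 was the highest library for Cd68, Ctss, Csf1r, Cd5l, C1qa and C1qb, and VPA replicate 1 the lowest for Lyz2. Over all 10 genes the sum was 421, 498 and 394 CPM in CTR and 365, 427, 397 and 696 CPM in VPA. Cd68 had the most counts of the set in CTR replicate 1 and in VPA replicates 1, 2 and 4, Lyz2 in CTR replicate 3 and VPA replicate 3, and C1qa in CTR replicate 2.

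The other genes of Kupffer cell identity ranged from no count to more counts than any member. Of a list of 15, 5 were tested, 2 with a fold change below 0 and 3 above, and none had an unadjusted p under 0.05. Timd4 (a receptor for dying cells) had 3 counts in all and Cd163 (the haemoglobin scavenger receptor) 2, and Folr2 and Siglec1 had none. Vsig4 (a complement receptor of Kupffer cells) had all of its 103 counts in CTR replicate 2. The haem-degrading enzyme Hmox1 had 2316 counts, at 266, 122 and 112 CPM in CTR and 191, 86.1, 197 and 0 CPM in VPA (edgeR adjusted p = 0.961). Il18bp, which binds and blocks IL-18, was the only 1 of the 5 tested genes of this list whose groups did not overlap. VPA was lower, which held for 7.41% of all genes tested. Il18bp was at 9.85, 16.2 and 9.32 CPM in CTR and 6.53, 0, 0 and 0 CPM in VPA (edgeR adjusted p = 0.725, DESeq2 adjusted p = 0.80). The iron exporter Slc40a1 was at 66.6 ± 22.3 CPM in CTR and 101 ± 31.5 in VPA (log2 fold change 0.60 ± 0.32, SE, edgeR adjusted p = 0.712). This fold change ranged from 0.34 without CTR replicate 2 to 0.80 without CTR replicate 1.

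Of 14 macrophage transcription factors, 11 were tested, 4 below 0 and 7 above with a median log2 fold change of 0.24, and none had an unadjusted p under 0.05. As for the genes of Kupffer cell identity, these counts came from whole slices. Which cells gave them was not tested, so the median is not one of macrophages alone. Among 8 genes of CSF receptors and ligands, 4 were tested, 2 in each direction. Csf1, the ligand of Csf1r, was at 74.7 ± 6.52 CPM in CTR and 59.2 ± 21.5 in VPA (log2 fold change -0.34 ± 0.32, SE, edgeR adjusted p = 0.902). This fold change ranged from -0.52 without VPA replicate 1 to -0.10 without VPA replicate 2.

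The list of 19 phagocytic and Fc receptors had 14 tested genes, 11 of them below 0 with a median log2 fold change of -0.27. Against 8.28% of all genes tested, 1 of the 14 had an unadjusted p under 0.05. This was Msr1, a scavenger receptor for modified lipoproteins, at 55.6, 53.4 and 53.7 CPM in CTR and 6.53, 21.5, 17.7 and 21.1 CPM in VPA. The groups did not overlap, VPA being lower, as for 2 of the 14 tested genes, against 7.41% of all genes tested. The log2 fold change of Msr1 was -1.69 ± 0.40 (SE, edgeR adjusted p = 0.295), which missed the threshold. DESeq2, which called 154 of 15261 genes tested, gave an adjusted p of 0.0337, the only 1 of 15 alternatives to pass. Itgam, an integrin chain of myeloid cells that is also on the complement receptor list, was at 9.41 ± 0.795 CPM in CTR and 1.76 ± 2.07 in VPA, without overlap (edgeR adjusted p = 0.726, DESeq2 adjusted p = 0.73). Of 9 complement receptors, 5 were tested and 3 were below 0. Cd93, also a gene of endothelium, was the only 1 of the 5 with an unadjusted p under 0.05, against 8.28% of all genes tested. It was at 133 ± 44.0 CPM in CTR and 49.6 ± 27.0 in VPA (edgeR adjusted p = 0.421, DESeq2 adjusted p = 0.16).

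Of 14 cathepsins and cystatins, 12 were tested, 3 below 0 and 9 above with a median log2 fold change of 0.27. Ctsl, a lysosomal protease that hepatocytes and fibroblasts also make, was at 634, 375 and 542 CPM in CTR and 1055, 1476, 2172 and 886 CPM in VPA. The groups did not overlap, VPA being higher, as for 2 of the 12 tested genes, against 4.44% of all genes tested. The log2 fold change of Ctsl was 1.43 ± 0.35 (SE, edgeR adjusted p = 0.320, DESeq2 adjusted p = 0.00755).

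Of 12 genes of lipid-associated macrophages, 10 were tested, 8 below 0, and 3 had an unadjusted p under 0.05, against 8.28% of all genes tested. The groups of these 3 did not overlap, VPA being lower, against 7.41% of all genes tested. The tetraspanin Cd63 was at 760 ± 80.3 CPM in CTR and 468 ± 71.2 in VPA, without overlap (log2 fold change -0.70 ± 0.16, SE, edgeR adjusted p = 0.295, DESeq2 adjusted p = 0.0202). The others were Fabp5, a fatty acid carrier, and Lgals3, galectin 3, with log2 fold changes of -0.59 ± 0.20 and -0.67 ± 0.26 (SE, edgeR adjusted p = 0.492 and 0.561, DESeq2 adjusted p = 0.52 and 0.454). None of these 3 is made by macrophages alone.

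Of 16 macrophage cytokines, 6 were tested, 5 below 0 with a median log2 fold change of -0.33, and none had an unadjusted p under 0.05. Ccl2, which draws monocytes, was at 47.8 ± 12.3 CPM in CTR and 35.5 ± 11.2 in VPA (edgeR adjusted p = 0.854). Of 23 pan-leukocyte and phagocyte oxidase genes, 11 were tested, 6 below 0 and 5 above, again with none at an unadjusted p under 0.05. Among genes of both lists with too few counts to be tested, all VPA libraries were under the CTR range for Coro1a (15, 39 and 8 counts in CTR, 0 in every VPA library), Ncf1 (14, 23 and 10 against 0, 0, 0 and 3), Il18 (15, 43 and 13 against 0 in every VPA library) and Il6 (5, 8 and 4 against 0 in every VPA library). These were named after their values were seen, and at this depth the CTR level of Il6 (1.91 ± 0.312 CPM) lay below the limit of 2.41 CPM in the shallowest VPA library. The larger share of genes at 0 in VPA libraries, 2.46 to 6.74% against 0.967 to 1.65%, moved with these values, its part was not tested, and no share of non-overlapping genes was computed over untested genes. No gene of any of these lists passed the adjusted threshold in edgeR.

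**Figure D4:**
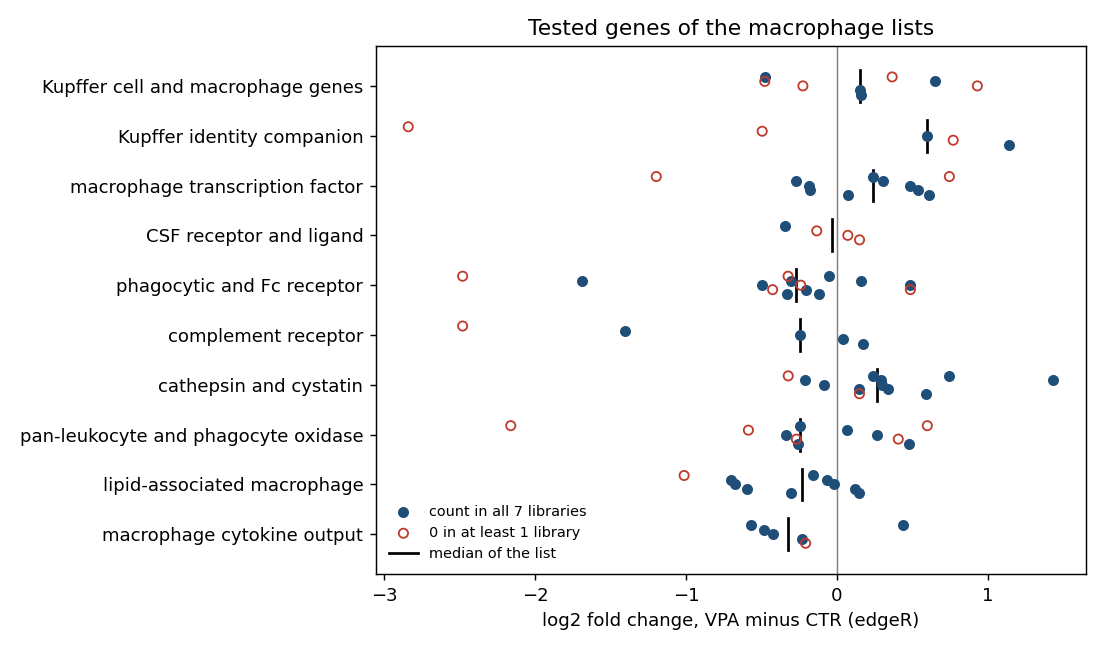
Log2 fold change, VPA minus CTR, from the edgeR fit (x axis) for each tested gene of the macrophage gene lists (y axis), where filled points have a count in all 7 libraries, open points are at 0 in at least 1, and black bars mark the median of a list. The 8 tested Kupffer cell and macrophage genes lie on both sides of 0 with a median of 0.16, and Ctsl at 1.43 and Msr1 at -1.69 lie farthest out among the filled points.

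Markers of other cells in the slice gave the setting of these values. Of 15 monocyte and neutrophil genes 9, and of 17 T, NK and B cell genes 8, were at 0 in all libraries, and of 11 dendritic cell genes 4 were, with 2, 1 and 3 genes tested and none at an unadjusted p under 0.05. Of 6 red blood cell genes none could be tested. For sinusoidal endothelium, which lines the vessels where Kupffer cells sit, 9 of 11 tested genes were below 0 and the summed level of the list was 475 to 556 CPM in CTR and 159 to 410 CPM in VPA. Of these 11 genes 6 were at 0 in at least 1 library, and over the whole list of 13 genes there were 3 zeros in CTR libraries and 18 in VPA libraries, whose part in the sums was not tested. The endothelial receptor Tek, the gene of that list with the smallest unadjusted p, was at 15.1 ± 1.87 CPM in CTR and had no count in any VPA library (edgeR adjusted p = 0.239, DESeq2 adjusted p = 9.61e-05). Kdr, the one with the highest mean, overlapped, at 74.8 ± 6.03 CPM in CTR and 60.9 ± 53.0 in VPA (edgeR adjusted p = 0.96).

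For stellate cells and myofibroblasts, 9 of 12 tested genes were below 0, and Col1a1, the collagen they lay down, was at 723 ± 218 CPM in CTR and 229 ± 38.9 in VPA (edgeR adjusted p = 0.112, DESeq2 adjusted p = 4.39e-07). Dcn, a matrix proteoglycan and the gene of that list with the highest mean, was at 848 ± 386 CPM in CTR and 1204 ± 489 in VPA (edgeR adjusted p = 0.892), and the summed level overlapped, at 2066 to 4378 CPM in CTR and 1643 to 3124 CPM in VPA. Hepatocyte genes had 3 of 9 tested below 0, with a summed level of 7314 to 20576 CPM in CTR and 4612 to 17286 CPM in VPA. Cholangiocyte genes had 3 of 5 below 0, with Cldn4, a tight junction gene, at 156 ± 46.8 CPM in CTR and 36.1 ± 12.8 in VPA (edgeR adjusted p = 0.142, DESeq2 adjusted p = 9.61e-05). Sox9, a transcription factor of bile ducts, was at 89.0 ± 16.2 CPM in CTR and 117 ± 26.01 in VPA (edgeR adjusted p = 0.748), Tm4sf4 had a log2 fold change of -0.03, and the summed level overlapped, at 477 to 633 CPM in CTR and 332 to 618 CPM in VPA. The part of these other cell types in the macrophage values was not tested.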

How the data were processed

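PCLS libraries were made by the authors with a 3′ end kit (QuantSeq FWD) from total RNA, sequenced as single-end reads, checked and trimmed with FastQC, mapped to GRCm38 with STAR and assembled with StringTie, without versions. The authors deposited raw counts of reads per Ensembl gene as whole numbers, 1 column per library, without normalization. The counting program, whether it used strand, and how it treated multi-mapping reads are not given in the sources used here.

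Groups, replicates and slice culture numbers were taken from the labels. From the counts, R 4.3.3 with edgeR 4.0.16 and limma 3.58.1 was used (filterByExpr, TMM, robust quasi-likelihood fit, condition as the only term, Benjamini-Hochberg adjustment over 10876 genes, threshold 0.05), and DESeq2 1.42.0, the tool named by the authors, as an alternative. The edgeR and DESeq2 fits were also run on simulated counts with known changes, whose outcome is not reported here. SEs are the absolute log2 fold change divided by the square root of edgeR's F statistic, and the 95% intervals use its t quantile. Single values were compared by exact permutation, two-sided, of the 35 ways to divide 7 libraries into 3 and 4. GENCODE for GRCm38 gave the coordinates. Libraries were treated as replicates as numbered in the labels. No pair within a group was the same library deposited again (chi-square per degree of freedom 14.7 to 27.3), which does not tell separate animals from repeat libraries.

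The genes named are the 10 members, their paralogs or overlapping genes and, from each other list, those among the 3 with the smallest unadjusted p and the highest mean CPM. Not every gene that this rule picks is reported here. Timd4, Cd163, Folr2, Siglec1, Vsig4, Coro1a, Ncf1, Il18 and Il6 were named after their values were seen. The members and lists were chosen with earlier results of these data known. Alternatives were RLE and upper quartile scaling, other count filters, no robust dispersion, replicate blocks and leaving out each library.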

Additional observations from a re-analysis of the deposited data

Results flagged for a closer look

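In the VPA group, 2 of 16 measures had a library far from the other 3 by Dixon's test, where chance gives about 0.05 of groups. The total count was 3102450 in VPA replicate 2 and between 1400887 and 1515954 in the others. The summed CPM of C1qa, C1qb and C1qc was 207.69 in VPA replicate 4 and between 84.9 and 99.6 in the others. This sum was formed after the values were seen. C1qb had no count in VPA replicates 1 and 2 and C1qa had none in VPA replicate 3, and the part of these zeros in the gap was not tested.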

How the results depend on the processing

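None of the 10 macrophage genes passed the adjusted threshold under any alternative. The number of all genes called was 1 with edgeR as used and also with RLE scaling, upper quartile scaling and no robust dispersion, against 154 with DESeq2 (39 higher and 115 lower in VPA), 10 without a filter, 36 with at least 10 counts in every library (6652 genes tested, 4 of them members) and 900 at an unadjusted p under 0.05. Leaving out 1 library gave 0 to 2. Msr1, Ctsl and Cd63 passed the adjusted threshold in 1 of 15 alternatives, Tek in 1 of 14, Cldn4 in 2 of 15 and Col1a1 in 3 of 15. Library pairs with the same slice culture number (correlations of deviations 0.0256 to 0.107) or replicate number (-0.0539 to 0.107) were not taken as pairs, since what the numbers mark is not given. With a replicate block by either, 0 genes were called. A library alone in its block adds nothing to the fold change. This held for VPA replicate 1 in the block by slice culture number and for VPA replicate 4 in the block by replicate number, so these fits also rest on fewer libraries. CTR replicates 3, 1 and 2 share slice culture numbers 71, 72 and 74 with VPA replicates 3, 4 and 2. Of the 10 members, Cd68 alone came to an unadjusted p under 0.05, giving a count of 1 in place of 0, with at least 10 counts in every library, with a replicate block by slice culture number or by replicate number, and without VPA replicate 3; leaving out libraries gave 0 to 1, and its adjusted p ranged from 0.329 to 0.9998. The block by replicate number moved the log2 fold change of C1qa to -1.85, of C1qb to -4.22 and of Cd5l to 1.57, and the block by slice culture number that of Cd5l to 1.90. Under the block by replicate number it turned for Clec4f (-0.92), Csf1r (-0.026), Csf2rb (-1.28) and Zbtb46 (-0.19); Zbtb46 turned also with the block by slice culture number (-0.42) and without a filter (-0.085). Leaving out 1 library, it ranged from -0.21 to 0.78 for Clec4f, -0.028 to 0.27 for Csf1r, -0.94 to 0.21 for C1qb, -0.29 to 0.63 for Csf2rb, -0.50 to 0.30 for Csf2rb2, -0.56 to 1.07 for Plac8, -0.38 to 0.21 for Zbtb46 and -1.17 to 0.013 for Epcam. Except for leaving out libraries and fewer genes tested, the cause was not tested.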
